A study of Sus scrofa with 8 samples.

Results

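The cells described here are GATA4+ cells, taken for lateral plate and coelomic mesoderm, found among the somite cells of early pig embryos. They were chosen by raw UMI counts (a UMI is 1 captured RNA molecule): at least 1 UMI of GATA4, at least 1 UMI of GATA6 or SFRP5, no UMI of EPCAM or MYBPC3, and UMIs of fewer than 3 of 7 endothelial genes (PECAM1, CDH5, KDR, PLVAP, ESAM, TIE1, CLDN5). Of 82394 cells with at least 200 genes, at most 30000 UMIs and at most 10% of UMIs on 13 mitochondrial genes, 1528 met the rule. The study sequenced single cells of somites at embryonic day 16, 18 and 21 (E16, E18, E21) and of the myotome, the muscle-forming part of the somite, at E28. At each stage 1 library came from Tibetan pigs (ZZ) and 1 from Duroc × Tibetan embryos (DZ), so the 8 libraries are E16-ZZ to E28-DZ. Each library was a pool of 5 embryos of one sow. No stage and breed has a second library, and differences between litters and between preparations cannot be told apart from those between stages or breeds.

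Lateral plate mesoderm lies beside the somites and splits around the coelom, the body cavity. Its inner layer gives rise to the heart, the smooth muscle and connective tissue of the gut, and the coelomic epithelium that later covers the organs as mesothelium. GATA4 and GATA6 are zinc-finger transcription factors of the heart and visceral mesoderm, and SFRP5 is a secreted WNT inhibitor of the same territory. The HAND factors mark lateral mesoderm widely, WT1 and TBX18 mark the coelomic epithelium and epicardium, and ISL1 and NKX2-5 mark heart progenitors.

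Because GATA4, GATA6 and SFRP5 chose the cells, their levels are a description only. Summed over the GATA4+ cells of a library and scaled to a total of 1000000 UMIs (CPM), GATA4 (chromosome 14, 14858470 to 14938156, Sscrofa11.1) was at 164 and 185 CPM for E16-ZZ and E16-DZ and at 241 and 268 CPM for E18-ZZ and E18-DZ. The other cells of the same libraries had 5.68 to 12.5 CPM. GATA6 stood at 109 to 147 CPM and SFRP5 at 168 to 383 CPM in the GATA4+ cells, with SFRP5 higher in both E18 libraries than in either E16 library. Many GATA4+ cells lay just inside the rule, with a single GATA4 UMI in 244 of 487 E16-ZZ cells, 310 of 531 E16-DZ cells, 131 of 282 E18-ZZ cells and 112 of 224 E18-DZ cells. Just outside it, 109 to 120 cells in each of these libraries had UMIs of both GATA6 and SFRP5 but none of GATA4. PKP2, a desmosomal plaque protein that also served as a marker but not in the rule, was at 102, 147, 116 and 144 CPM in E16-ZZ, E16-DZ, E18-ZZ and E18-DZ, against 65.1, 92, 56.3 and 42.9 CPM in the other cells. It was higher in GATA4+ cells in all 4 libraries, with a log2 fold change of 1.01 ± 0.17 (SE, n = 4 libraries; adjusted p = 0.011, edgeR).

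The GATA4+ cells were found at the first stages. They were 7.73% of the cells of E16-ZZ (487 of 6297, exact 95% binomial interval 7.09 to 8.42%), 5.01% of E16-DZ (531 of 10603, 4.60 to 5.44%), 2.74% of E18-ZZ (282 of 10301, 2.43 to 3.07%) and 2.16% of E18-DZ (224 of 10347, 1.89 to 2.46%). In E21-DZ 4 of 10194 cells met the rule (0.0392%). None did in E21-ZZ, E28-ZZ or E28-DZ, where 0 of 11610, 10869 and 12173 cells allows a share of up to 0.0258, 0.0276 and 0.0246% by a limit of 3 cells, and up to 0.0318, 0.0339 and 0.0303% by the exact interval. Both E16 libraries lay above both E18 libraries, and these intervals cover counting error only. The median cell of E16-ZZ, E16-DZ, E18-ZZ and E18-DZ had 6338, 5217, 5964 and 4736 UMIs, and the median GATA4+ cell 10683, 9254, 8335.5 and 6234.5. The rule asks for UMIs of several genes and so favours deep cells. Each cell with at least 1500 UMIs was then thinned to 1500, and shallower cells were left out. The shares became 1.00, 0.576, 0.536 and 0.521% of 6170, 9552, 9142 and 9784 cells. The interval of E16-DZ (0.434 to 0.749%) then overlapped those of both E18 libraries. E16-ZZ also stood apart in quality, since 4062 of its 10373 barcodes exceeded the mitochondrial limit. GATA4 UMIs also occurred in cells with markers of another lineage: 1.20 to 3.59% of the PAX6+ neural cells of the E16 and E18 libraries (median 4779 to 6037 UMIs) had a GATA4 UMI, and 1 to 14 of these cells per library met the rule. Whether these UMIs came from free RNA or doublets was not tested.

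**Figure D1:**
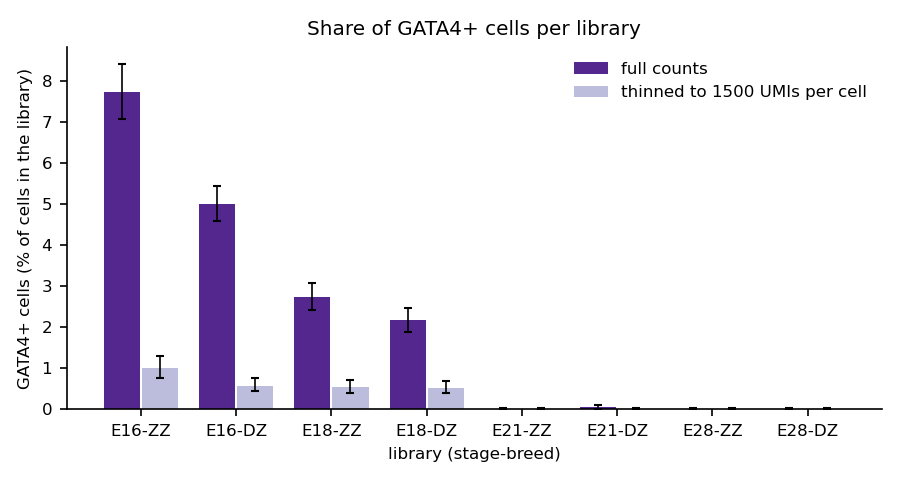
Share of GATA4+ cells in each of the 8 libraries (percent of cells, with exact 95% binomial intervals), from the full counts and after thinning to 1500 UMIs. Cells with fewer than 1500 UMIs are left out of the thinned shares. The full counts give 7.73% in E16-ZZ and 2.16% in E18-DZ, and thinning leaves 1.00% and 0.521%.

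Across genes, UMIs of the GATA4+ cells were summed per library and compared with the sums of all other cells of the same library, which asks what these cells express beyond the genes that chose them. The rule's 12 genes were left out of the calls. Of 13013 genes tested, 611 (4.7%) were higher and 830 (6.38%) lower in GATA4+ cells at an adjusted p under 0.05 (edgeR quasi-likelihood test with Benjamini-Hochberg adjustment over all genes, 4 libraries). The GATA4+ cells were deeper than the others. Against other cells of nearest depth, 561 genes were higher and 717 lower. Without E16-ZZ 342 were higher and 377 lower, and without E16-DZ 346 and 367. At a mitochondrial limit of 5%, which left 123 to 234 GATA4+ cells per library, 541 were higher and 456 lower, so that lower calls no longer outnumbered higher ones.

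Regulators of lateral plate mesoderm were mostly higher. Of 14 such genes tested, 8 rose and 1 fell, with a median log2 fold change of 0.86 against -0.02 over all genes. Without E16-DZ, E18-ZZ or E18-DZ, 5 of the 14 rose. HAND2, a basic helix-loop-helix factor of heart and limb mesoderm, was at 140, 152, 88 and 86.5 CPM in the GATA4+ cells of E16-ZZ, E16-DZ, E18-ZZ and E18-DZ and at 41.9, 38.3, 17.8 and 13.3 CPM in the other cells. The 2 kinds of cells did not overlap, and the log2 fold change was 2.16 ± 0.15 (SE, adjusted p = 0.00034). Its relative HAND1 was at 122 to 184 CPM against 64.7 to 126 CPM, and its change of 0.71 ± 0.19 missed the threshold (adjusted p = 0.052). TBX2 (2.29), TBX20 (2.25), FOXF1, a forkhead factor of visceral mesoderm (1.65), BARX1, a homeobox factor of stomach mesenchyme (1.58), ISL1 (1.00) and PRRX1 (0.67) also rose on the log2 scale. IRX3 fell by 1.77. Among the partners of GATA4, the related factor GATA5 rose by 2.02 ± 0.13 and the GATA cofactors ZFPM2 and ZFPM1 by 2.07 and 1.61, while GATA1, the erythroid member, fell by 4.03. GATA2 and GATA3 did not pass the test. The log2 ratios of GATA2 in GATA4+ to other cells were -2.78, -1.99, 1.2 and 1.49 in E16-ZZ, E16-DZ, E18-ZZ and E18-DZ. GATA2 was thus lower in both E16 libraries and higher in both E18 libraries.

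Genes of the coelomic epithelium and of heart progenitors were raised in part. WT1 had 12.7, 17.3, 72.6 and 58.2 CPM in the GATA4+ cells of E16-ZZ, E16-DZ, E18-ZZ and E18-DZ and 8.14, 4.82, 49.2 and 16.1 CPM in the other cells, a log2 fold change of 1.20 ± 0.25 (adjusted p = 0.023). The level was higher in GATA4+ cells within each library, although the other cells of E18-ZZ had more than the GATA4+ cells of either E16 library. TBX18 (2.88) and LHX2, a LIM-homeobox factor (2.69), were the other 2 of 7 coelomic genes that rose, and none fell. The summed level of the coelomic list was lower in the GATA4+ cells of E16-ZZ, at 67.23 CPM against 73.93 CPM. It was higher in those of E16-DZ, E18-ZZ and E18-DZ, at 91.3, 253.2 and 228.44 CPM against 61.996, 125.82 and 73.74 CPM. Of 9 heart progenitor genes 5 rose, among them TBX5 (2.28 ± 0.24) and HCN4, a pacemaker channel (2.42), and FGF8 fell. Without E16-DZ 2 of them rose, and without E18-DZ or at a mitochondrial limit of 5% 3. The summed level of the heart progenitor list was lower in the GATA4+ cells of both E16 libraries. It was at 73.04 and 97.95 CPM in E16-ZZ and E16-DZ against 81.62 and 108.26 CPM in the other cells. In E18-ZZ and E18-DZ the sum was higher, at 91.48 and 112.56 CPM against 74.74 and 74.55 CPM. NKX2-5 was at 5.63, 6.65, 11.2 and 19.4 CPM in the GATA4+ cells of E16-ZZ, E16-DZ, E18-ZZ and E18-DZ and at 13.1, 25.4, 6.40 and 4.11 CPM in the other cells, and the fit over the 4 libraries gave no call (log2 fold change -0.15, adjusted p = 0.92). The rule's lack of MYBPC3 put the cardiac muscle cells, where NKX2-5 was at 195 to 646 CPM, among the other cells, so this comparison is set in part by the rule. The mesothelial genes TCF21 and LHX9 were near 0, at up to 1.09 and 1.66 CPM in the GATA4+ cells.

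Signalling genes were raised in part. In the BMP list 8 of 14 genes rose and 1, the antagonist GREM1, fell. BMP5 was at 38.6 to 50.6 CPM in GATA4+ cells and 8.44 to 18.3 CPM in other cells (log2 fold change 1.83 ± 0.16, adjusted p = 0.00076). Immediate BMP targets rose as well, with SMAD7 at 1.67, SMAD6 at 1.35, BAMBI at 1.32 and ID2 at 1.17. The ligand TGFB2 was one of the most raised genes: it was at 132, 207, 394 and 422 CPM in the GATA4+ cells of E16-ZZ, E16-DZ, E18-ZZ and E18-DZ against 36.8, 40.7, 30.3 and 35.7 CPM (log2 fold change 2.86 ± 0.31, adjusted p = 0.0018). WNT2, a WNT ligand of heart and lung mesoderm, was at 72.5, 55, 40.9 and 42.7 CPM against 13.3, 9.31, 6.71 and 6.25 CPM (2.58 ± 0.10, adjusted p = 0.00011). In the list of SFRP and WNT genes 4 of 15 rose (WNT2, WNT2B, RSPO3 and DKK3) and 3 fell (SFRP2, LEF1 and AXIN2), of which 1 fell without E16-ZZ, without E16-DZ, without E18-ZZ, at a mitochondrial limit of 5% or against cells of nearest depth. Of 9 Hedgehog genes BOC alone passed over the 4 libraries, and it fell by 2.01. In the E16 libraries alone 4 were higher and 2 lower, in a fit that called 2150 genes higher and 2359 lower. Of 13 retinoic acid genes none rose and 4 fell over the 4 libraries. The summed level of that list was lower in the GATA4+ cells of each library, at 419 to 1261 CPM against 1270 to 2478 CPM.

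The remaining genes highest by fold change were DEUP1, which acts in centriole amplification (3.19 ± 0.20), the matrix proteins MATN2 (2.86), EMILIN2 (2.20) and TNXB (2.18), the lipase LIPG (2.59), and PLCL1, CPXM2, ARHGAP22, RADX and MAP3K5 (2.09 to 2.40). DEUP1 was at 26, 26.6, 10.4 and 10.5 CPM in GATA4+ cells of E16-ZZ, E16-DZ, E18-ZZ and E18-DZ, with a UMI in 16.6% of them, and at 0.745 to 3.77 CPM elsewhere. ARHGAP22 lost its call without E18-DZ or without E18-ZZ, and MAP3K5 without E16-ZZ. Of 8 matrix genes 4 rose, the collagens COL1A2 (1.54), COL1A1 (1.23) and COL3A1 (0.85) and FN1 (0.55), and POSTN fell, though not without E16-DZ or without E18-DZ. Desmosomal DSP rose with PKP2 (1.11, 2 of 5 genes). In the E16 libraries alone 2 desmosome genes rose and 3 fell, and in the E18 libraries alone all 5 rose. Over all genes these fits called 2150 higher and 2359 lower at E16, and 1132 higher and 998 lower at E18. Over the 4 libraries KRT8 rose by 0.89. By contrast, the cadherins CDH1 and CDH2 fell by 3.58 and 1.06 and the tight junction gene CLDN7 by 3.94. Without E16-ZZ or without E16-DZ 1 of these 3 falls was called. The rule's lack of EPCAM left EPCAM+ epithelial cells among the other cells. The falls of CDH1 and CLDN7 are thus set in part by the rule.

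Markers of most other lineages were lower in GATA4+ cells. Of 8 paraxial mesoderm genes, the somite's own program, 7 fell and none rose: PAX3 was at 0.727, 2.22, 4.63 and 1.66 CPM in the GATA4+ cells of E16-ZZ, E16-DZ, E18-ZZ and E18-DZ and at 10, 16.4, 29.2 and 32.8 CPM in the other cells (log2 fold change -3.22 ± 0.25, adjusted p = 0.00047). ZIC2, a zinc-finger factor outside these lists, fell by 3.06. The summed level of the paraxial list was 9.63 to 35.5 CPM in GATA4+ cells and 55.6 to 160.03 CPM in other cells. Of 10 endoderm and yolk sac genes 9 fell. In the E18 libraries alone 6 of 9 fell and 1 was higher, in a fit that called 1132 genes higher and 998 lower. The endoderm list summed to 219, 237, 130 and 117 CPM in the GATA4+ cells of E16-ZZ, E16-DZ, E18-ZZ and E18-DZ. In the other cells it summed to 466, 1077, 139 and 145 CPM, so the gap was wide at E16 and small at E18. CLDN6, a claudin of early epithelia, was not called over the 4 libraries. Its log2 ratios of GATA4+ to other cells were -0.61, -0.62, 0.85 and 1.05 in E16-ZZ, E16-DZ, E18-ZZ and E18-DZ, so it was lower in both E16 libraries and higher in both E18 libraries, and the difference between the stages passed the test (adjusted p = 2.3e-06). Endothelial genes outside the rule fell in 5 of 6 (75.3 to 80.4 CPM against 149.99 to 293), intermediate mesoderm genes in 5 of 7, and both tested neural crest genes fell. Among the endothelial genes TEK was lower in both E16 libraries and higher in both E18 libraries. Its log2 ratios were -2.14, -2.58, 1.05 and 0.254 in E16-ZZ, E16-DZ, E18-ZZ and E18-DZ. At a mitochondrial limit of 5% 1 of 5 endothelial, 2 of 5 intermediate mesoderm and 4 of 7 endoderm genes fell. The rule itself removed part of these lineages, through EPCAM, MYBPC3 and the endothelial genes. The erythroid list fell in 4 of 5 genes and summed to 52.7 to 770 CPM in GATA4+ cells against 2857 to 5814 CPM. The globins HBE1 and HBZ, genes of embryonic red cells, fell by 4.38 and 4.40 but stayed detectable: HBE1 had a UMI in 77.6% of GATA4+ cells and 71.2% of the others. CRABP1, CXCR4, RBP4, HOXB9, SPINT2 and LRIG3 were the other genes lowest by fold change (-3.45 to -2.46).

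**Figure D2:**
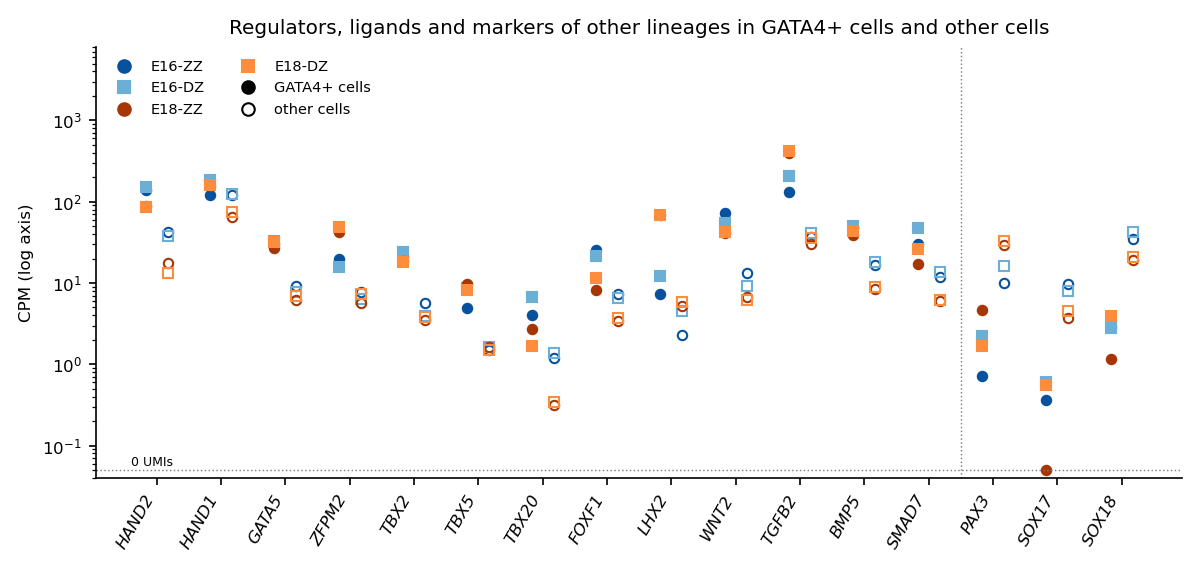
Summed level (CPM, log axis) of 16 genes in the GATA4+ cells (filled) and the other cells (open) of the 4 libraries of E16 and E18, with circles for ZZ, squares for DZ, and a sum of 0 UMIs drawn on the dotted line. Left of the vertical line are regulators and ligands of lateral mesoderm, such as HAND2 at 86.5 to 152 CPM against 13.3 to 41.9, and right of it markers of somite, endoderm and endothelium, such as PAX3 at 0.727 to 4.63 CPM against 10 to 32.8.

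The GATA4+ cells were not uniform. KRT8 and KRT18, the simple-epithelium keratins, ranged from 0 to 379 UMIs per 10000 UMIs of a cell in E16-ZZ and from 0 to 205 in E18-DZ. The medians were 85.4 and 54.1 for E16-ZZ and E16-DZ and 25.0 and 28.9 for E18-ZZ and E18-DZ. At a cut of 20, set after the data were seen, 84.8, 83.8, 56.0 and 56.7% of the cells were above it, and 22 to 53 cells of each library lay within 5 of the cut. The keratins were also abundant in the other cells (KRT8 at 1257 to 4056 CPM). Cells above the cut were deeper, with medians of 6927 to 11222 UMIs against 5787 to 7929.5 below it.

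**Figure D3:**
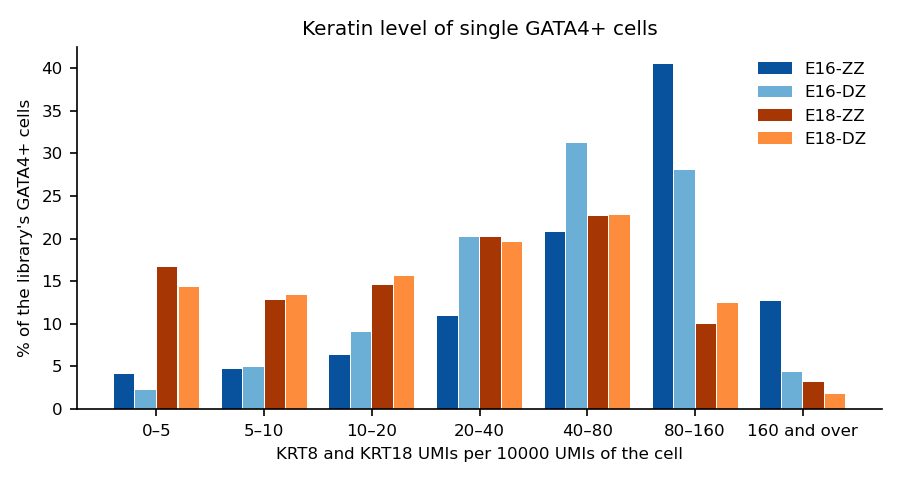
Percent of the GATA4+ cells of each E16 and E18 library by their KRT8 and KRT18 UMIs per 10000 UMIs. The E16 cells are most frequent in the bins from 40 to 160 and the E18 cells from 20 to 80, with cells in every bin in all 4 libraries.

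Detection of regulators within single cells followed more than one pattern. WT1 had a UMI in 11.5% of the GATA4+ cells of E16-ZZ, 13.6% of E16-DZ, 37.9% of E18-ZZ and 28.6% of E18-DZ. After thinning to 1500 UMIs these shares were 3.70, 1.33, 9.32 and 8.93%, with both E18 libraries still above both E16 libraries. WT1 and LHX2 were found together: among WT1+ cells 26.8, 20.8, 41.1 and 35.9% had LHX2, and among WT1- cells 2.78, 6.10, 27.4 and 25.6%. The WT1+ cells were the shallower at E16 (median 9044 and 9112 UMIs against 11088 and 9254) and the deeper at E18 (9123 and 7008 against 7433 and 6051). The E16 cells with LHX2 had HAND1 less often than those without, at 25.9 against 50.4% in E16-ZZ and 37.2 against 62.5% in E16-DZ, but they were also shallower (5634 and 5535 against 11042 and 9504 UMIs). ISL1 and NKX2-5 were found together in a smaller set. NKX2-5 was in 26.5 and 31.7% of the ISL1+ cells of E18-ZZ and E18-DZ (9 and 13 cells) and in 2.42 and 3.83% of the ISL1- cells. In E16-ZZ and E16-DZ the shares were 10 and 7.61% (5 and 7 cells) against 2.75 and 4.10%. The ISL1+ cells were deeper, with medians of 9394.5 and 8957 UMIs against 8116.5 and 5787 in E18-ZZ and E18-DZ. Greater depth favours finding both genes in a cell. WT1 was rarer in the ISL1+ cells of E18-ZZ and E18-DZ, at 14.7 and 17.1% against 41.1 and 31.1%, although the ISL1+ cells were deeper. These shares are descriptions over cells of single libraries.

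Between E16 and E18 the GATA4+ cells differed widely. With breed as a covariate, 1330 of 10453 genes (12.7%) were higher and 1552 (14.8%) lower at E18 at an adjusted p under 0.05 (edgeR, 2 libraries per stage, 1 residual degree of freedom). DESeq2 called 336 and 548 on the same sums. Without E18-DZ 637 were higher and 714 lower, and without E18-ZZ 752 and 904, both with no breed term. Each fit of the stages without a library also lacked the breed term, since 3 libraries leave no degree of freedom beside it, and dropping that term alone gave 1244 higher and 1426 lower. The other cells of the same libraries changed too, with 12.8% of 14502 genes called in either direction. A test of the difference between the change in GATA4+ cells and in other cells, added after the data were seen, called 16.6% of 13807 genes. The Cell Ranger version of the deposited counts, 3.1.0 at E16 and 3.0.2 at E18, and the keratin level of the cells moved with the stage, and their part in these changes was not tested. Among GATA4+ cells under the keratin cut, fewer in number, 371 genes were higher and 507 lower.

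Coelomic epithelial genes were higher at E18. Of 7 tested, 5 rose and UPK1B fell (not without E18-DZ), with a median log2 fold change of 1.95 against 0.01 over all genes. LHX2 rose from 7.27 and 12.3 CPM in E16-ZZ and E16-DZ to 68.3 and 68.8 CPM in E18-ZZ and E18-DZ (2.65 ± 0.21 on the log2 scale, adjusted p = 4e-05). In the other cells LHX2 stood at 2.33 to 5.82 CPM, and the change in GATA4+ cells exceeded theirs by 2.05 ± 0.23 (adjusted p = 5.7e-05). WT1 rose by 1.95 ± 0.20 in GATA4+ cells, but the other cells went from 8.14 and 4.82 CPM to 49.2 and 16.1 CPM, and no difference between these changes was called (-0.21 ± 0.38, adjusted p = 0.77). TBX18 (2.58), BNC1 (2.50) and ALDH1A2, the enzyme that makes retinoic acid in this mesoderm (1.01), rose as well, and with DESeq2 4 of the 7 rose. For ALDH1A2 the log2 ratio of GATA4+ to other cells was 0.435 and 0.55 at E16 and 0.0972 and 0.558 at E18. For TBX18 it was 2.45 and 2.04 against 3.36 and 3.27, and for BNC1 0.00541 and 0.0618 against 1.96 and 1.80.

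Other genes raised at E18 encode transcription factors, matrix and membrane proteins. NR2F2, an orphan nuclear receptor, rose from 28.3 and 26.6 CPM in E16-ZZ and E16-DZ to 262 and 322 CPM in E18-ZZ and E18-DZ (3.21 ± 0.16, adjusted p = 3.4e-06). It rose by 1.32 in the other cells, and the difference of 1.86 ± 0.12 between them passed the test (adjusted p = 6.4e-07). FOXP2 (3.49), RBMS3 (2.63), ZFHX4 (2.52), the proteoglycans GPC3 (2.67) and DCN (2.61), the collagen COL14A1 (3.02), TFPI2 (3.04), PRSS23 (2.78), FLRT2 (2.66), LRRC3B (2.84) and SHISA3 (3.13) belong to the same group by the naming rule. SFRP1, a WNT inhibitor like SFRP5, went from 140 and 215 CPM in E16-ZZ and E16-DZ to 994 and 997 CPM in E18-ZZ and E18-DZ (2.34 ± 0.15, adjusted p = 1.5e-05). It was the 1 of 14 SFRP and WNT genes that rose, and 3 fell (1 with DESeq2), WNT5A by 1.62, WNT2 by 0.80 and RSPO3 by 0.41. In the other cells 4 of 16 tested genes of this list rose and 1 fell. The log2 ratio of GATA4+ to other cells for WNT2 was 2.45 and 2.56 at E16 and 2.61 and 2.77 at E18. For RSPO3 it was 1.21 and 1.39 against 0.977 and 1.21, and for WNT5A 0.934 and 1.29 against -0.086 and -0.22. Of 12 BMP genes 3 rose in the GATA4+ cells, BMP4 by 1.14 ± 0.14, MSX1 by 1.29 and SMAD6 by 0.65. Another 5 fell, NOG by 2.07, BMP7 by 1.26, SMAD7 by 1.02, BAMBI by 0.65 and ID1 by 0.39. Without E18-ZZ, without E18-DZ or with DESeq2, 2 BMP genes rose and 1 fell. In the other cells 6 of 15 tested BMP genes fell and none rose. The log2 ratios of GATA4+ to other cells in E16-ZZ, E16-DZ, E18-ZZ and E18-DZ were 1.36, 1.78, 1.51 and 2.09 for SMAD7. They were 0.791, 1.27, 1.75 and 1.52 for BAMBI and 0.564, 0.723, 0.846 and 1.04 for ID1. Those of NOG fell from 1.53 and 1.54 to -0.268 and -0.0439, and those of BMP7 from -0.576 and 0.469 to -1.30 and -1.34. Of 12 retinoic acid genes 6 rose in the GATA4+ cells, among them CRABP2, STRA6 and CYP26B1 by 1.39, 1.95 and 2.71. ALDH1A1 and CYP26A1 fell, though 1 fell without E18-ZZ, and with DESeq2 2 rose and 0 fell. In the desmosome list 4 of 5 genes rose by 0.50 to 0.91, though none of them passed with DESeq2 or without E18-DZ.

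Transcription factors and surface proteins were also among the genes lower at E18. PITX1, a homeobox factor of the hindlimb field, was at 132 and 153 CPM for E16-ZZ and E16-DZ and at 8.11 and 4.44 CPM in E18-ZZ and E18-DZ (-4.62 ± 0.23, adjusted p = 3.4e-06). TBX4, also of the hindlimb and allantois, went from 7.63 and 13.1 CPM to 2 UMIs in both E18 libraries together, a ratio of 22.5 (exact interval 6.07 to 188). CD44, the hyaluronan receptor, was at 54.9 and 25.8 CPM at E16 and at 1.16 and 0.554 CPM at E18. ANXA1 (-4.67), LY6G6F and the chemokine CXCL14 (978 and 1040 CPM in E16-ZZ and E16-DZ against 81.1 and 80.4 CPM in E18-ZZ and E18-DZ) moved the same way. FGF19 was at 9.63 and 28 CPM at E16 and had no UMI at E18, at least 26.9-fold lower against a floor of 3 UMIs over both E18 libraries. Of 13 lateral plate regulators 5 rose and 3 fell, with a median log2 fold change of -0.12. BARX1 rose by 3.55 and ISL1 by 0.84, and HAND2 fell by 0.92 and FOXF1 by 1.48. With no breed term 3 rose, and without E16-ZZ or without E18-DZ 2, with no call for ISL1. With DESeq2 2 rose and 2 fell, and among cells under the keratin cut 3 of 10 rose and 0 fell. In the other cells 3 of 14 tested lateral plate regulators rose and 6 fell. For FOXF1 the log2 ratio of GATA4+ to other cells was 1.81 and 1.73 at E16 and 1.27 and 1.66 at E18. HAND1 lay between 122 and 184 CPM in the GATA4+ cells with no call (-0.12, adjusted p = 0.60). KRT8 and KRT18 both fell by 1.08. In the other cells CXCL14, PITX1 and CD44 were also lower at E18, by less than in GATA4+ cells. For CXCL14 the log2 ratio of GATA4+ to other cells was 0.341 and 0.787 at E16 and -1.07 and -0.535 at E18. KRT8 fell further in the other cells, with log2 ratios of 0.692 and 0.563 at E16 and 1.08 and 1.25 at E18.

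**Figure D4:**
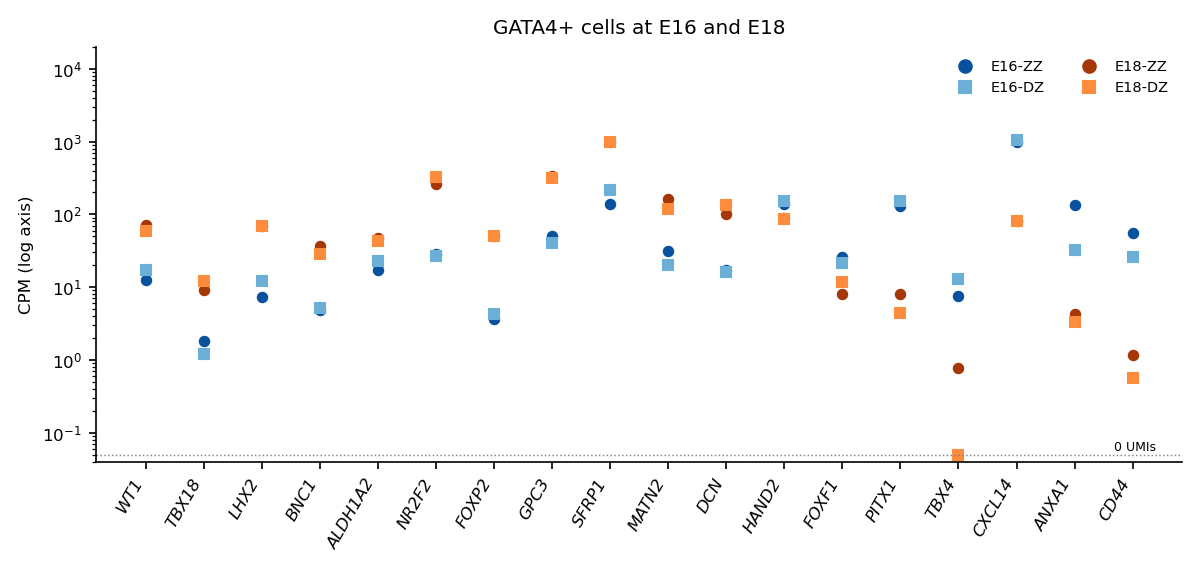
Summed level (CPM, log axis) of 18 genes in the GATA4+ cells of the 2 E16 libraries (blue) and the 2 E18 libraries (orange), with circles for ZZ, squares for DZ, and 0 UMIs on the dotted line. LHX2 lies at 7.27 and 12.3 CPM at E16 and 68.3 and 68.8 CPM at E18, and PITX1 at 132 and 153 against 8.11 and 4.44.

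The HOX genes divided by their place in the clusters. HOX genes are numbered from the 3′ to the 5′ end of each cluster, and as background, higher numbers are expressed further back along the body axis. The axial level of the dissected tissue is not in the labels. The grouping was made after the values were seen. Of 9 tested genes of paralogues 1 to 4, 6 were higher at E18 and none lower. HOXB2 rose from 6 and 6.45 CPM in E16-ZZ and E16-DZ to 50.2 and 58.8 CPM in E18-ZZ and E18-DZ (2.93 ± 0.21, adjusted p = 2.3e-05) and HOXC4 from 4.18 and 5.84 to 43.2 and 41 CPM. Of 10 genes of paralogues 5 to 8, 2 were higher (HOXB5 and HOXC5) and 1, HOXD8, lower. Without E16-DZ 4 were higher, without E16-ZZ 3 were lower, and without E18-ZZ 4 were lower. Of 9 genes of paralogues 9 to 13, none was higher and 8 were lower, all but HOXB9, with a median log2 fold change of -4.90, or -4.32 with the genes absent at E18 set at their bound. With DESeq2 5 of the 9 were lower, and HOXA9, HOXA11 and FGF19 missed the threshold. In the other cells 6 of 10 tested genes of paralogues 1 to 4 were also higher at E18 and none lower.

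HOXA13, at the 5′ end of the HOXA cluster (chromosome 18, 45373340 to 45379046), had 73.8 and 85.5 CPM in E16-ZZ and E16-DZ and 1 UMI in both E18 libraries together, a ratio of 349 (exact interval 62.4 to 13782). HOXA10 had 95.8 and 114 CPM at E16 and 2 UMIs at E18, a ratio of 230 (63.5 to 1901). HOXA11 had 22 and 26 CPM at E16 and none at E18, and was at least 35.0-fold lower. HOXA9 fell from 78.5 and 103 CPM to 5.79 CPM in E18-ZZ and 0 UMIs in E18-DZ, so the 2 E18 libraries differed. HOXC9 was at 22.3 and 45.3 CPM at E16 and at 2.7 and 0.554 CPM at E18. The other cells of the same libraries also had little HOXA13 at E18, at 25.9 and 18.2 CPM in E16-ZZ and E16-DZ and 0.296 and 0.0173 CPM in E18-ZZ and E18-DZ. In them 5 of 12 tested genes of paralogues 9 to 13 fell. The change in GATA4+ cells exceeded that in other cells for HOXA9 (-3.00, adjusted p = 9.3e-05), HOXA10 (-3.03, adjusted p = 0.0098) and HOXB2 (adjusted p = 1.9e-05), but no such difference was called for HOXA13 (adjusted p = 0.59).

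**Figure D5:**
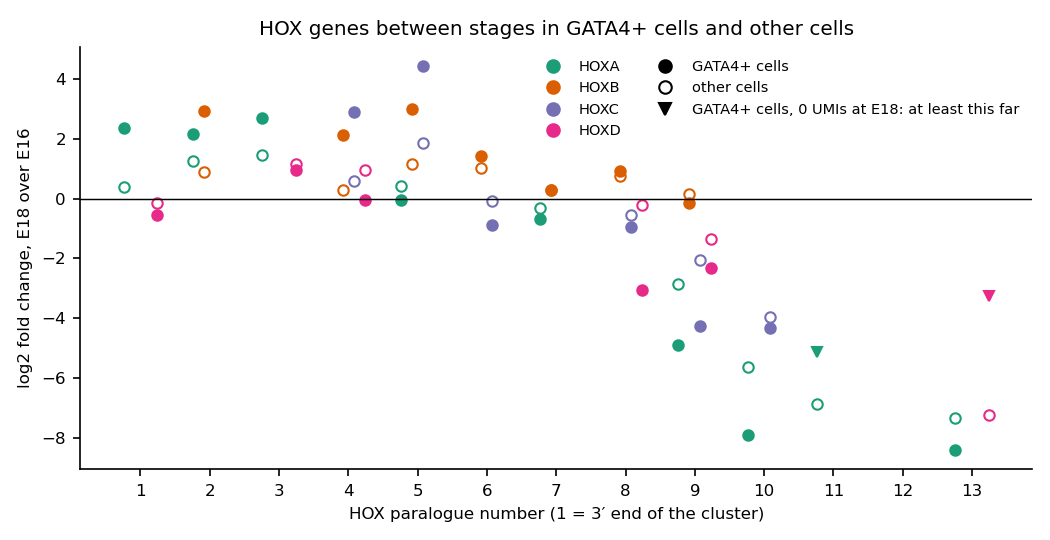
Log2 fold change of E18 over E16 for each HOX gene tested in both the GATA4+ cells (filled) and the other cells (open), by paralogue number, coloured by cluster. Most filled points lie above 0 up to paralogue 5 and all lie below 0 from paralogue 9 on, and the triangles for HOXA11 and HOXD13, with 0 UMIs at E18, are bounds.

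Genes of cholesterol synthesis and uptake, a list also drawn up after the values were seen, were lower at E18 together: 14 of 15 fell, and with DESeq2 13. HMGCS1, an early enzyme of the pathway, was at 247 and 275 CPM in E16-ZZ and E16-DZ and 73.3 and 52.1 CPM in E18-ZZ and E18-DZ (-2.24 ± 0.16, adjusted p = 2.7e-05). In the other cells it was at 169, 163, 136 and 118 CPM, and the difference between the changes was -1.71 ± 0.11 (adjusted p = 5.3e-07). INSIG1 (-2.34) and IDI1 (-1.84) moved alike, and the difference from the other cells was called for 13 of the 15. In the other cells 8 of the 15 also fell. Among GATA4+ cells under the keratin cut 12 of 14 fell. Of 8 cell division genes 4 fell and TOP2A rose. Without E18-DZ or with DESeq2 1 fell and without E18-ZZ 2, and TOP2A had no call in either case or without E16-ZZ.

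Between breeds no gene passed the test in the GATA4+ cells (0% of 10453 genes in either direction, edgeR with stage as a block). At an unadjusted p under 0.05 there were 680, and DESeq2 called 2. The smallest adjusted p was 0.0872, shared by ANXA1 and GPX1, named here after their values were seen. ANXA1 had a log2 fold change of -1.97 (DZ over ZZ), and was at 32.2 CPM in E16-DZ, at a higher level in E16-ZZ, and at 4.25 and 3.33 CPM in E18-ZZ and E18-DZ. With a mitochondrial limit of 5% 65 genes were called, with no filter on low counts 59, and with doublet calls removed 9.

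The GATA4+ cells were next compared with HAND+ cells of the same libraries that lacked GATA4, GATA6 and SFRP5. A lack of UMIs of 3 genes favours shallow cells, and the HAND+ cells had medians of 5834.5, 5076, 6943 and 5863 UMIs in E16-ZZ, E16-DZ, E18-ZZ and E18-DZ against 10683, 9254, 8335.5 and 6234.5 in the GATA4+ cells. The part of this gap in the calls was not tested. Of 10658 genes tested, 221 (2.07%) were higher and 229 (2.15%) lower (edgeR, 4 libraries, HAND1 and HAND2 left out). TGFB2 was at 132 to 422 CPM in GATA4+ cells and 35.1 to 51.5 CPM in HAND+ cells (2.46 ± 0.29, adjusted p = 0.0034). DEUP1 (3.08), NEBL, an actin-binding protein of the Z-disc family (2.39), MATN2 (2.36) and LHX2 (2.31) were the others highest by fold change among genes found in at least 10% of the cells, though MATN2 lost its call without E16-ZZ, without E18-DZ or without E18-ZZ. WT1 was higher by 1.70 ± 0.20 (5.96, 4.23, 24.4 and 11.3 CPM in the HAND+ cells of E16-ZZ, E16-DZ, E18-ZZ and E18-DZ), as were HCN4 and TBX5, though at a mitochondrial limit of 5% no heart progenitor gene was called. Of 11 lateral plate regulators 1, TBX2, was higher (2 without E16-DZ) and 2, IRX3 and NKX2-3, were lower. Of 14 SFRP and WNT genes 3 were higher (WNT2, RSPO3 and DKK3) and 2 lower (SFRP2 and LEF1), and none was lower at that limit. GATA5, ZFPM1 and ZFPM2 were higher and GATA3 lower among 5 GATA genes and cofactors, and GATA3 was not called without E16-DZ. FOXF1 and PKP2 showed no call, at log2 fold changes of 0.24 and -0.25.

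POSTN, periostin, was lower by 3.75 ± 0.38 in the GATA4+ cells (7.26 to 39 CPM against 67.8 to 380), and LUM and COL3A1 were lower by 1.88 and 0.54. EPAS1 (-3.30), FABP7 (-3.13), HBE1 (-3.04) and HBZ (-3.00) completed the lowest genes. FABP7 and HBZ lost their calls without E16-DZ, and HBE1 and HBZ without E18-DZ. HOX genes of paralogues 5 to 8 were lower in 7 of 10 and higher in none. HOXB8, for example, was lower by 2.30 ± 0.24, with 3.27 to 17 CPM in the GATA4+ cells and 21.2 to 45.7 CPM in the HAND+ cells. Of paralogues 1 to 4, 3 of 9 were lower, and of paralogues 9 to 13 also 3 of 9, with none higher in either group. With 1 library left out, up to 3 genes of paralogues 9 to 13 were higher.

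Against MYBPC3+ cardiac muscle cells, 691 of 8781 genes (7.87%) were higher in GATA4+ cells and 927 (10.6%) lower (edgeR, 4 libraries, the sarcomere genes that chose the cardiac cells left out). The cardiac cells numbered 76, 235, 58 and 23 in E16-ZZ, E16-DZ, E18-ZZ and E18-DZ. MYBPC3 was absent by rule from GATA4+ cells and required in cardiac cells. Gaps in other cardiac genes, from NKX2-5 to HSPB3 below, are set in part by this choice. Without E16-DZ 242 genes were higher and 448 lower. A mitochondrial limit of 5% left 11 cardiac cells in E16-ZZ and 9 in E18-DZ, under the minimum of 20, and the fit on the other 2 libraries called 42 higher and 154 lower. NKX2-5 was at 527, 646, 398 and 195 CPM in the cardiac cells of E16-ZZ, E16-DZ, E18-ZZ and E18-DZ and at 5.63 to 19.4 CPM in GATA4+ cells (-5.76 ± 0.41, adjusted p = 1.4e-06). The atrial light chain MYL4 fell by 7.94 and the natriuretic peptide gene NPPB fell by 8.69, and 6 of 8 heart progenitor genes were lower. ACTA1, MYL2 and CSRP3 of the contractile apparatus and HSPB3, a small heat shock protein of muscle, were 790, 609, 589 and 1022 times higher in the cardiac cells as ratios of summed CPM, the last from 1 UMI in the GATA4+ cells (exact interval 181 to 40572).

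TGFB2, WNT2, HAND2 and TBX2 showed no call between these kinds of cells, at log2 fold changes of 0.03, -0.12, 0.10 and 0.40. WT1 was higher in GATA4+ cells by 2.77 ± 0.36, LHX2 by 3.39, ALDH1A2 by 2.75, COL1A1 by 3.33 ± 0.16 (286 to 765 CPM against 33 to 53.1), COL3A1 by 2.99 and the axon guidance receptor ROBO2 by 4.12. MCUB lost its call in the fit at the 5% mitochondrial limit, which held 2 libraries. MCUB, SHISA3 and COL12A1, next to ROBO2 and CXCL14 (3.78) the highest by fold change, had 2, 2 and 3 UMIs in all cardiac cells, for ratios of 29.1 (7.99 to 241), 32.5 (8.93 to 269) and 17.3 (5.86 to 84.3). Hedgehog genes were higher in 5 of 8 (3 with DESeq2), GLI1 by 3.17. Without E16-DZ 1 was higher of the 5 that could be tested, and without E16-ZZ 2 of 9.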

How the data were processed

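The authors deposited whole-number UMI counts per gene and barcode for 8 libraries (10x Genomics 3′ kit, Cell Ranger 3.1.0 for E16 and 3.0.2 for the others per the file headers, Sscrofa11). These counts are neither normalized nor corrected for free RNA or doublets. Of 90688 barcodes, 82394 passed the limits. Libraries held 50110370 to 71091640 UMIs. Of the barcode sequences, 831 occurred in more than 1 library, and no GATA4+ cell shared its sequence with another one.

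Counts were summed over cells per library (at least 20 cells per sum) and tested with edgeR 4.0.16 (TMM, filterByExpr, quasi-likelihood test, Benjamini-Hochberg over all genes), with the library as a block, or with breed or stage as the other term. The 12 genes of the rule and 13 mitochondrial genes were left out of calls. Log2 fold changes are from these fits, SE is the change over the root of its F statistic, and CPM is UMIs scaled to 1000000 summed UMIs, not corrected for gene length, since the reads come from 3′ ends. DESeq2 1.42.0 was an alternative. Exact intervals of ratios of summed UMIs pool the libraries and cover counting error only, not the spread between libraries. Only the fits against other cells and between stages were tested on simulated data. At a log2 fold change of 1 they recovered 67 and 80% of 100 changed genes. At 2 they recovered 88.9 and 100% of the changed genes that were still tested. They made 18 and 19 false calls among the unchanged genes. The simulated counts followed the model of the fits, and genes with few UMIs were not among the changed ones. Recovery of such genes was thus not tested.

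The cells and gene lists were chosen with earlier results of these data known. Of 196 list genes, 178 were found. The genes named were the 15 highest and 10 lowest by fold change (5 and 5 for HAND+ and cardiac cells and for breeds) past an adjusted p of 0.05, with a UMI in at least 10% of the cells of the higher kind and the same direction in every library or no overlap of groups, beside genes of the lists. Late stages could not be compared, since no E21 or E28 library had 20 GATA4+ cells. Gene positions are RefSeq's for Sscrofa11.1. Alternatives were other normalizations and filters, Scrublet (scanpy 1.11.5), depth-matched cells and leaving out libraries. Some genes the naming rule or lists hold are not reported here.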

Additional observations from a re-analysis of the deposited data

Results flagged for a closer look

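Of the 25 genes named against other cells, 9 changed differently between stages in GATA4+ cells than in the other cells of the same libraries. This was tested as an interaction (edgeR, 4 libraries, 2 residual degrees of freedom). Over all genes the same test called 16.6% of 13807. The excess at E18 over E16 was 2.50 for ARHGAP22, 2.35 for MATN2, 2.05 for LHX2, 1.48 for TGFB2, 1.05 for RBP4, 0.85 for LIPG and 0.56 for HAND2 on the log2 scale, and -1.49 for MAP3K5 and -1.37 for PLCL1. For HAND2 the excess reflects a smaller fall in the GATA4+ cells, where it went from 140 and 152 CPM in E16-ZZ and E16-DZ to 88 and 86.5 CPM in E18-ZZ and E18-DZ, than in the other cells, where it went from 41.9 and 38.3 to 17.8 and 13.3 CPM.

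In E21-DZ, which entered no comparison across genes, 4 cells (0.0392% of 10194, exact 95% interval 0.0107 to 0.100%) met the rule, and none remained after thinning to 1500 UMIs. A count of 0 would allow 0.0294%, which lies within this interval. These 4 cells held 46885 UMIs, with 7 of GATA4, 8 of GATA6 and none of SFRP5. All 5 WT1 UMIs and 19 KRT8 UMIs were in 1 cell with 20254 UMIs, 3 of the cells had ALDH1A2, and no UMI of HAND1, HAND2, LHX2 or ISL1 was found. SFRP1, COL1A2 and COL3A1 had 90, 179 and 86 UMIs.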

How the results depend on the processing

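No paired analysis was possible by replicate number, because each stage and breed has 1 library. Cells within libraries were compared with the library as a block, and stages or breeds with the other as a term. The calls against other cells numbered 1441, 4509 in the E16 libraries alone, 2130 in the E18 libraries alone, and 713 to 1155 with 1 library left out. The calls between stages numbered 2882, 884 with DESeq2 and 878 in keratin-low cells, and 1351 to 2930 with both 1 library and the breed term left out (1656 without E18-ZZ). Against HAND+ cells there were 450 calls, 902 with no filter on low counts, and 260 to 357 with 1 library left out. Against cardiac muscle cells there were 1618, 1078 with DESeq2, 196 at a mitochondrial limit of 5%, which left 2 libraries with enough cardiac cells, and 690 to 1671 with 1 library left out. Between breeds the calls were 0, 2 with DESeq2, 9 with Scrublet doublets removed, 2 in keratin-low cells, 65 at a mitochondrial limit of 5%, 59 with no filter. With each library left out they were 0, but those fits had no stage term and say nothing of stability. The mean share of GATA4+ cells over the E16 and E18 libraries was 4.41% and 0.659% after thinning. None of the genes named by rule changed direction under an alternative in which it was tested. Not every alternative tested all of them, as with 22 of 25 between stages in keratin-low cells. HOXA11, FGF19 and HOXA9 missed the threshold between stages with DESeq2, as did MCUB against cardiac cells in the fit on 2 libraries. MAP3K5 also missed it in the E18 libraries alone. Leaving out a library between stages or breeds, the keratin split and the test against the other cells' change were chosen after seeing the data, and late against early stages, and its fits without E16 or E28, were not run because no late library had enough cells. The causes were not tested. Single UMIs of GATA4 limit which cells are found, so cells of low depth are under-represented.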
